A study of Glycine max with 18 samples.

Results

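Of the 45955 genes measured in germinating soybean seeds, 6 genes for the synthesis of raffinose family sugars are described here. They are the galactinol synthases gene8335 (RefSeq XM_003521556.3) and gene55115 (XM_003554563.3), the galactinol-sucrose galactosyltransferases gene15912 (XM_006581848.2) and gene11959 (XM_003525498.3), the stachyose synthase gene55008 (XM_003554508.3) and the UDP-glucose 4-epimerase gene30355 (XM_014763764.1). They had been selected on their FPKM in these same libraries, as abundant transcripts that differed between the study's mutant lines. Their differences between the lines are therefore given as a description, without a test. One more gene of that list, gene47762, a probable galactinol-sucrose galactosyltransferase, could not be paired with an identifier of the expression table and was not analysed here. The study lists it as higher in TW-1-M, whereas it lists all 6 genes described here as lower.

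Both lines are low phytic acid (LPA) mutants and carry the same small deletion in GmMIPS1, which encodes a myo-inositol phosphate synthase. TW-1-M descends from a single plant with better field emergence found within TW-1, and TW-1 was obtained by gamma irradiation of the vegetable soybean Taiwan 75. RNA of whole seeds was sequenced in 3 replicates of each line at 3 stages, which gave 18 libraries in 6 groups. Stage 1 was the imbibition stage, stage 2 was placed by the labels at 12 h after imbibition had finished (the study's methods give a shorter interval), and stage 3 was marked by a primary root of 1 mm. The sources used here do not say whether replicates were separate seed lots, so the p-values measure only the spread between these libraries.

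Raffinose family sugars are short chains of galactose on sucrose that soybean embryos store late in maturation, together with protein and oil, and break down during germination. Galactinol synthase joins UDP-galactose to myo-inositol, and the galactinol so formed gives its galactose to sucrose, making raffinose, and to raffinose, making stachyose. Myo-inositol is also the start of phytate synthesis, and alpha-galactosidases take the galactose off again.

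Values are FPKM, the number of sequenced fragments scaled to the length of the transcript and to the mapped fragments of the library, so levels may be compared between genes. The summed FPKM of a library ranged from 683231 to 1296622, and 21206 to 25452 genes reached at least 1 FPKM. The table holds no read counts, so no counting error is given. Of the 12 seed protein symbols listed as markers of the tissue, 8 were found. Glycinin GY2, glycinin GY4 and beta-conglycinin CG-1 were abundant at stage 1. Others were low, as beta-conglycinin CG-3 stayed at or under 0.16 FPKM and CG-BETA-1 at or under 1.22 FPKM. Glycinin GY3 reached at most 0.29 FPKM in TW-1 and 10.04 FPKM in TW-1-M. The summed FPKM of the 8 had medians of 1037, 297 and 79.0 in TW-1-M at stages 1, 2 and 3, and of 1279, 1248 and 304 in TW-1. At stage 3 these sums ranged from 67.1 to 138 in TW-1-M and from 236 to 790.3 in TW-1. The summed seed protein RNA was thus lower at stage 3 in both lines, and its part in the results on the 6 genes was not tested. The trypsin inhibitor gene KTI3 was an exception in TW-1, with 123 ± 28.3 FPKM at stage 3 and 104 ± 11.8 FPKM at stage 1 (SD, n = 3 each). In RNA of whole seeds, fewer cells of a type and less RNA per cell cannot be told apart.

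All 6 genes were most abundant in TW-1 at stage 1 and least abundant in TW-1-M at stage 3. Summed over the 6 genes, TW-1-M had 1308 ± 281 FPKM at stage 1, 220 ± 30.6 at stage 2 and 40.5 ± 21.7 at stage 3 (SD, n = 3 each). The sum in TW-1 was 3579 ± 747 FPKM at stage 1, 1751 ± 399 at stage 2 and 524 ± 654 at stage 3 (SD, n = 3 each). The last of these means rested on replicate 1, with 1279 FPKM, whereas the other replicates had 162 and 132 FPKM. The sum in TW-1-M at stage 2, at 191 to 252 FPKM, was thus nearer to those 2 libraries of TW-1 at stage 3 than to TW-1 at stage 2, which had 1438 to 2200 FPKM.

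**Figure D1:**
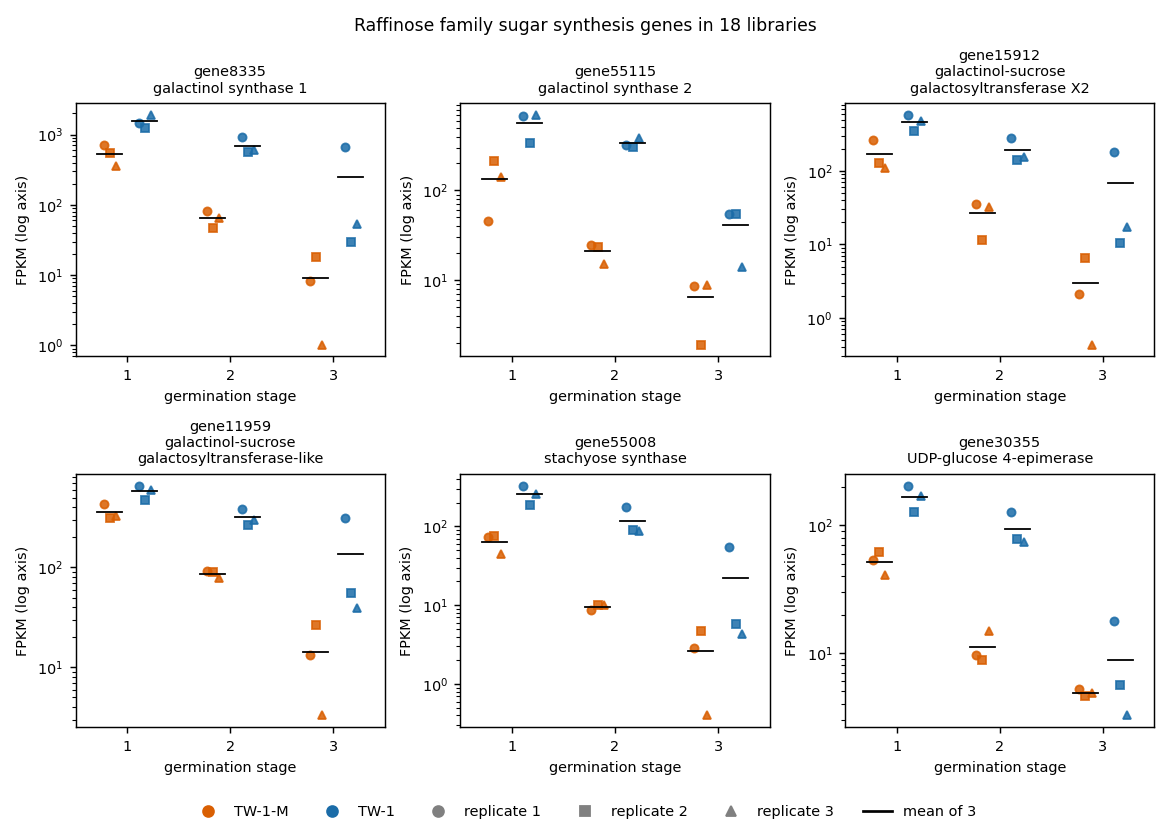
FPKM (log axis) of the 6 genes against germination stage, with TW-1-M to the left of TW-1 at each stage, 1 point for each library, a marker shape for each replicate and a line at the mean of 3. In TW-1 at stage 3, replicate 1 stood above the other replicates in every gene but gene55115.

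The galactinol synthase gene8335 had the highest mean of the 6 genes at each stage of TW-1, though at stage 3 this rested on replicate 1. In TW-1-M it had 703, 546 and 352 FPKM at stage 1, 81.5, 46.2 and 65.7 FPKM at stage 2, and 8.35, 18.1 and 1.02 FPKM at stage 3. In TW-1 it had 1464, 1246 and 1902 FPKM at stage 1, 913, 558 and 609 FPKM at stage 2, and 658, 29.5 and 53.5 FPKM at stage 3. The stages did not overlap in TW-1-M, and in TW-1 only stage 3 against stage 2 overlapped, through replicate 1 of stage 3. By its mean it ranked 78 of 45955 genes in TW-1 at stage 1 and 10387 in TW-1-M at stage 3.

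The other galactinol synthase, gene55115, followed another course among replicates. It had 45.9, 215 and 142 FPKM at stage 1 in TW-1-M, 24.8, 23.3 and 15.1 FPKM at stage 2, and 8.62, 1.89 and 8.78 FPKM at stage 3. The TW-1 libraries had 669.7, 335 and 697 FPKM at stage 1, 318, 303 and 385 FPKM at stage 2, and 54.1, 54.9 and 13.8 FPKM at stage 3. Replicate 1 of TW-1-M at stage 1 was low for this gene although it was the highest of its group for gene8335, and stages 1 and 2 overlapped in TW-1.

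The galactinol-sucrose galactosyltransferases, or raffinose synthases, move the galactose of galactinol onto sucrose. The one annotated as transcript variant X2, gene15912, had 267, 129 and 109.5 FPKM at stage 1 in TW-1-M, 35.9, 11.6 and 32.2 FPKM at stage 2, and 2.10, 6.53 and 0.43 FPKM at stage 3. Its TW-1 values were 579, 355 and 478 FPKM at stage 1, 280.0, 140.3 and 156 FPKM at stage 2, and 181, 10.4 and 17.3 FPKM at stage 3. Its stages overlapped only between stages 3 and 2 of TW-1. The second, gene11959, had 432, 311 and 325 FPKM at stage 1 in TW-1-M, 91.1, 90.8 and 79.1 FPKM at stage 2, and 13.4, 26.5 and 3.30 FPKM at stage 3. Those of TW-1 were 661, 474 and 601 FPKM at stage 1, 385, 269 and 302 FPKM at stage 2, and 312, 56.0 and 39.7 FPKM at stage 3, so that stage 3 overlapped stage 2 through replicate 1. With this gene the lines lay closest together at stage 1, where TW-1-M averaged 356 ± 66.1 FPKM and TW-1 579 ± 95.3 FPKM (SD, n = 3 each).

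Stachyose synthase extends raffinose by a further galactose. The gene gene55008 had 72.2, 75.5 and 44.0 FPKM at stage 1 in TW-1-M, 8.62, 9.96 and 10.2 FPKM at stage 2, and 2.87, 4.64 and 0.40 FPKM at stage 3. The values in TW-1 were 329, 188 and 257 FPKM at stage 1, 177, 90.2 and 87.7 FPKM at stage 2, and 55.4, 5.78 and 4.35 FPKM at stage 3. All stages were separate in both lines, and the libraries of TW-1-M at stage 2 overlapped those of TW-1 at stage 3.

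UDP-glucose 4-epimerase interconverts UDP-glucose and UDP-galactose, the galactose donor for galactinol. The gene gene30355 had 53.1, 61.9 and 41.0 FPKM at stage 1 in TW-1-M, 9.57, 8.77 and 14.9 FPKM at stage 2, and 5.26, 4.57 and 4.84 FPKM at stage 3. For TW-1 they were 205, 126 and 170.0 FPKM at stage 1, 128, 77.9 and 73.8 FPKM at stage 2, and 17.8, 5.63 and 3.24 FPKM at stage 3. Stages 2 and 1 of TW-1 overlapped narrowly. It was the least abundant of the 6 genes in TW-1, and at stage 3 its lines overlapped, since TW-1 replicate 3 lay below all libraries of TW-1-M. The lines also overlapped at stage 3 in gene55008.

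Between the lines, TW-1-M was below TW-1 without overlap in 6 of the 6 genes at stage 1, 6 at stage 2 and 4 at stage 3. Of the 27150 genes that reached 1 FPKM in at least 3 libraries, 13.2%, 21.5% and 11.4% were lower without overlap at these stages. The median difference of the 6 genes (TW-1-M minus TW-1, log2(FPKM + 1)) was -1.61, -3.18 and -2.69 at stages 1, 2 and 3, against medians of all genes of 0.00, 0.08 and 0.01. These differences are what the genes were listed for and are not evidence of their own. Near the edge of the list, gene30355 was its least abundant gene in TW-1 at stage 1 with a mean of 167 FPKM. Outside it, the UDP-glucose 4-epimerase-like gene13755 averaged 170 FPKM there and the alpha-galactosidase-like gene46563 78.1 FPKM.

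Changes within each line were tested with limma on log2(FPKM + 1), which understates the change of low values. A gene was called where its p-value, adjusted by Benjamini-Hochberg over the 27150 genes, was under 0.05 and its log2 fold change exceeded 1 in size. All 6 genes passed the filter on low values. The stage 1 and stage 2 libraries had also served in listing them, so these tests are not fully separate from that choice. Limma's test of the interaction of line and stage over the 18 libraries holds the line differences that chose the genes and supports nothing here. It passed for none of the 6 (limma adjusted p of 0.235 to 0.758), which does not show that the lines changed alike, and gene30355 alone passed without adjustment.

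In TW-1-M all 6 genes fell by stage 2. They were called lower at stage 2 than at stage 1, where 6.92% of all genes were, with a median log2 fold change of -2.48 for the 6 genes and 0.07 for all genes. The changes ran from -2.01 ± 0.22 for gene11959 to -3.01 ± 0.33 for gene8335 (SE, limma adjusted p = 0.00397 and 0.00387), and the stages did not overlap in any of the 6, as in 23% of all genes. In means, gene8335 was 8.28-fold lower at stage 2 and gene11959 4.09-fold lower. Across the alternatives and the libraries left out, 4 to 6 of the 6 genes were called, beside 1.68% to 10.3% of all genes called lower.

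From stage 2 onward the TW-1-M values were lower again, but few passed the test. At stage 3 against stage 2, gene11959 and gene15912 were called lower, with log2 fold changes of -2.88 ± 0.57 and -2.95 ± 0.61 (SE, limma adjusted p = 0.0414 and 0.0450), where 1.49% of all genes were called lower. The other 4 genes had limma adjusted p of 0.0515 to 0.0711, with gene8335 at a log2 fold change of -3.16 ± 0.70 (SE), and all 6 were separate between the stages, as were 15.5% of all genes. The calls depended on single libraries. None of the 6 was called without replicate 1, 2 or 3 of stage 2 or replicate 1 of stage 3, in which fits 0.081% to 0.265% of all genes were lower. Without replicate 2 of stage 3, 5 were called, beside 4.25% of all genes, whereas 6 passed at the unadjusted p, beside 4.41% of all genes. None was called either with a pseudocount of 0.1, without the filter, after quantile normalization or in a fit of all 18 libraries. In those settings 0.0026% to 1.2% of all genes were lower.

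Over the whole span in TW-1-M, stage 3 against stage 1, all 6 genes were called lower, where 16.4% of all genes were. Their median log2 fold change was -4.61, against 0.11 for all genes. It was largest for gene8335, at -6.17 ± 0.76, and smallest for gene30355, at -3.15 ± 0.22 (SE, limma adjusted p = 0.00139 and 0.000324). In means gene8335 was 58.3-fold lower, gene15912 55.8-fold, gene11959 24.8-fold, gene55008 24.2-fold, gene55115 20.9-fold and gene30355 10.6-fold. The stages of all 6 were separate, as in 30.5% of all genes. All 6 were called under each alternative and with each single library left out, beside 10.6% to 19.1% of all genes called lower.

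**Figure D2:**
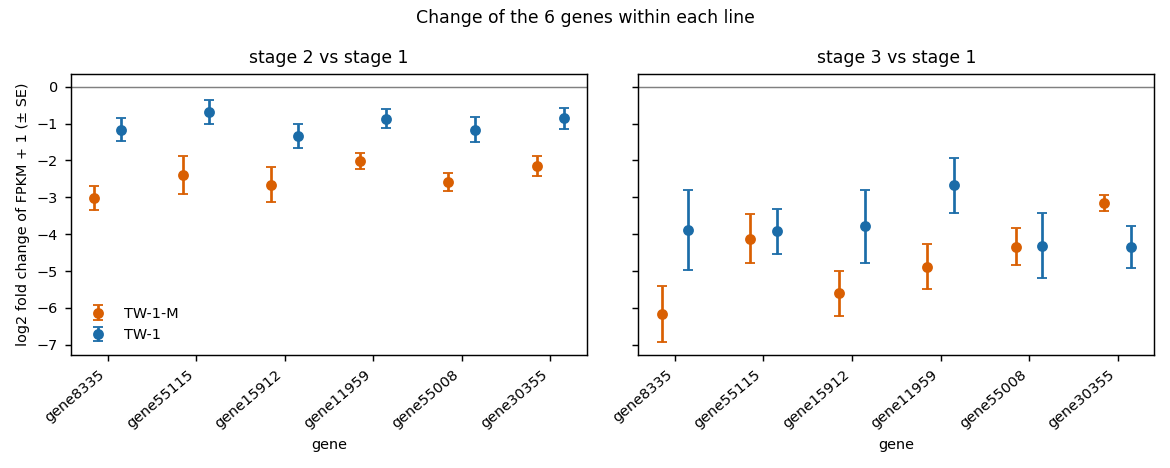
Log2 fold change of FPKM + 1 for the 6 genes at stage 2 against stage 1 (left panel) and stage 3 against stage 1 (right panel), with TW-1-M to the left of TW-1 and bars of 1 SE from limma. At stage 2 the changes ran from -2.01 to -3.01 in TW-1-M and from -0.69 to -1.33 in TW-1, where none of the genes tested was called, and limma's interaction of line and stage passed for none of the 6.

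In TW-1 the 6 genes were not called at stage 2 against stage 1. Their log2 fold changes ran from -0.69 ± 0.33 for gene55115 to -1.33 ± 0.33 for gene15912 (SE, limma adjusted p = 0.406 and 0.372), with a median of -1.01. No gene of the 27150 was called lower (0%) or higher (0%) here, whereas 214 (0.788%) were lower and 547 (2.01%) higher at an unadjusted limma p under 0.05 with the same fold, among them 3 of the 6 genes, all lower. In 4 of the 6 genes the stages did not overlap, as in 10.2% of all genes. Without replicate 1 of stage 2, which was the highest of its group in 5 of the 6 genes, 4 of the 6 were called lower, beside 1.03% of all genes.

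At stage 3 against stage 2 in TW-1, none of the 6 was called. The log2 fold changes ran from -1.81 ± 0.76 for gene11959 to -3.50 ± 0.58 for gene30355 (SE, limma adjusted p = 0.351 and 0.194). Again 0% of all genes were called lower, and 1183 (4.36%) were at the unadjusted p, 5 of the 6 genes among them. The stages were separate in 3 of the 6, as in 11.2% of all genes. Replicate 1 of stage 3 stood apart. In 5 of the 6 genes it was the highest of its group, at 3.16 to 12.3 times the higher of the other replicates, and only gene55115, at 0.985 times, was not raised there. That library also had the highest summed seed marker value of its group. It differed as a whole as well, with 21576 genes at 1 FPKM or more, against 24517 and 25452 in the other replicates. Its summed FPKM, 1296622, was the highest of the 18 libraries. Without it all 6 genes were called lower, with log2 fold changes of -2.71 to -4.23 (limma adjusted p of 0.00983 to 0.0154), but so were 10.3% of all genes, against 0% with it.

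At stage 3 against stage 1 in TW-1, gene30355 and gene55115 were called lower, where 0.726% of all genes were. Their log2 fold changes were -4.35 ± 0.56 and -3.92 ± 0.61 (SE, limma adjusted p = 0.0350 and 0.0476). The other 4 had log2 fold changes of -2.68 to -4.31 with limma adjusted p of 0.0643 to 0.0954, and in all 6 genes the stages were separate, as in 17.3% of all genes. Leaving out replicate 1 of stage 3 gave 6 calls, beside 18.7% of all genes. Leaving out replicate 1, 2 or 3 of stage 1 or replicate 2 or 3 of stage 3 gave none, beside 0% to 0.00368% of all genes. With replicate 1 of stage 3 left out, gene55008 stood at 1.96% and gene11959 at 8.27% of their stage 1 means.

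The 6 genes moved together unequally. Of all pairs of the 6 genes, gene8335 and gene15912 kept the steadiest ratio, and gene55115 and gene8335 the most variable one. The SD of the difference in log2(FPKM + 1) was 0.41 and 1.45. The ratio of gene8335 to gene15912 stayed between 2.04 and 4.25 in all 18 libraries, although gene15912 itself ranged from 0.43 to 579 FPKM. The ratio of gene55115 to gene8335, the galactinol synthases, ranged from 0.0652 in TW-1-M stage 1 replicate 1 to 8.61 in TW-1-M stage 3 replicate 3. In the latter library gene8335 had only 1.02 FPKM. The ratio of gene11959 to gene15912 averaged 2.33 ± 0.68 at stage 1, 4.26 ± 3.06 at stage 2 and 6.03 ± 1.83 at stage 3 in TW-1-M, and 1.25 ± 0.10, 1.74 ± 0.32 and 3.14 ± 1.97 in TW-1 (SD, n = 3 each). The order of the levels changed accordingly. By its mean, gene8335 led in all groups of TW-1 and in TW-1-M at stage 1, whereas gene11959 led in TW-1-M at stages 2 and 3, where the libraries of both genes overlapped (79.1 to 91.1 FPKM for gene11959 and 46.2 to 81.5 FPKM for gene8335 at stage 2, and 3.30 to 26.5 and 1.02 to 18.1 FPKM at stage 3). In TW-1 at stage 3 the lead of gene8335 rested on replicate 1. Replicates 2 and 3 there averaged 41.5 FPKM for gene8335 and 47.9 FPKM for gene11959.

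**Figure D3:**
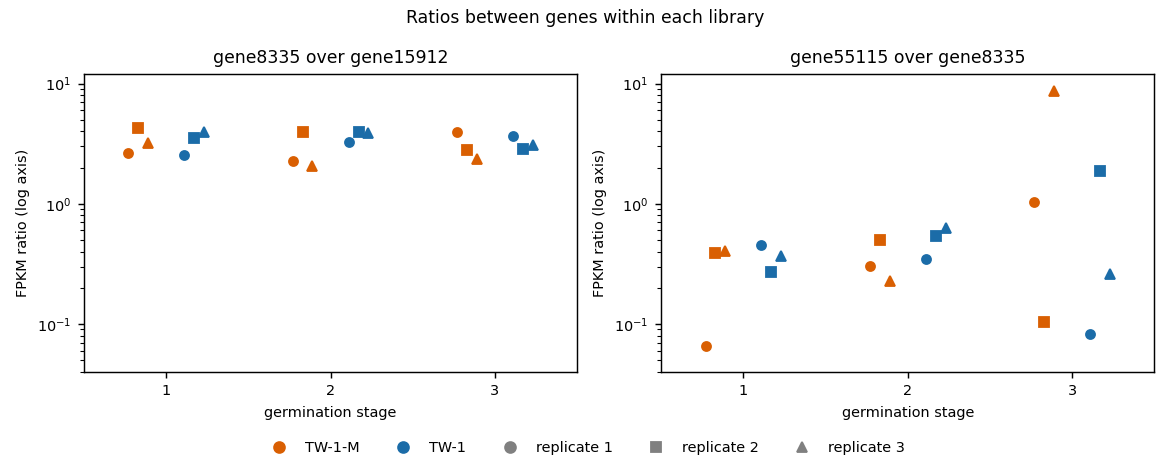
Ratio of FPKM within each library (log axis) against stage for gene8335 over gene15912 (left panel) and gene55115 over gene8335 (right panel), with TW-1-M to the left of TW-1 and 1 point for each library. The first ratio kept within 2.04 to 4.25, and the second ran from 0.0652 to 8.61.

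Across the 18 libraries, which share groups and stages, each of the 6 genes correlated with the mean course of the other 5 at Pearson's r of 0.896 (gene55115) to 0.990 (gene55008). Among the 10533 genes with a mean of at least 10 FPKM, the 5 most like the mean course of the 6 genes were an uncharacterized gene (gene26615, r = 0.991), a 26.5 kDa mitochondrial heat shock protein (gene22387, r = 0.987), seed maturation protein PM36 (gene46994, r = 0.985), LOC100818416 (r = 0.984) and a dihydropyrimidinase (gene42064, r = 0.984). These correlations are descriptions, since libraries of different stages are not independent draws of one group. The 6 genes were also listed for a difference between the lines in these libraries, so a shared course was partly set by that choice.

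Beyond the 6, the study's files annotate 10 other genes of the pathway, 6 for synthesis and 4 alpha-galactosidases, of which 9 passed the filter. Those files list genes the study had called between the lines in these libraries. Counts and p-values between the lines, for these genes together or singly, are therefore not independent evidence. In TW-1-M 4 of the 9 were called lower and 1 higher at stage 2 against stage 1, and 4 lower and 1 higher at stage 3 against stage 1, where 6.92% and 16.4% of all genes were called lower and 11.4% and 21.1% higher. At stage 3 against stage 2 only gene46563 was called, as lower, where 1.49% of all genes were. In TW-1 none of the 9 was called by limma at stage 2 against stage 1 or at stage 3 against stage 2, where 0% of all genes were. At the unadjusted p, 1 was lower and 1 higher at the first step, beside 0.788% and 2.01% of all genes. At the second step 3 were lower at that p, beside 4.36%. The 2 genes gene8417 and gene10921 were called lower at stage 3 against stage 1, as were 0.726% of all genes. These counts also rested on single libraries. In TW-1-M at stage 2 against stage 1, 5 of the 9 were called in all, beside 3 without replicate 2 of stage 1 (4.71% of all genes), 2 without replicate 2 of stage 2 (3.96%) and 3 without replicate 3 of stage 2 (6.65%). The single call at stage 3 against stage 2 was lost without any one replicate of stage 2 and without replicate 1 or 3 of stage 3. In those fits 0.081% to 0.95% of all genes were lower. In TW-1, leaving out replicate 1 of stage 3 gave 5 calls, all lower, at stage 3 against stage 2, where 10.3% of all genes were then lower and 12% higher. It gave 5 lower and 1 higher at stage 3 against stage 1, where 18.7% were lower and 24.2% higher. Leaving out replicate 1 of stage 2 gave 2 at stage 2 against stage 1, beside 5.74% of all genes in either direction. At stage 3 against stage 1, leaving out any library but replicate 1 of stage 3 gave 0, beside 0% to 0.00368% of all genes. Between the lines 4 were lower in TW-1-M at stage 2, where 6.56% of all genes were. None was called by limma at stage 1 or 3, where 0.346% and 0.011% of all genes were lower. At the unadjusted p, 4 of the 9 were lower at stage 1 (2.42% of all genes) and 0 at stage 3 (3.05%). Limma's test of the interaction of line and stage passed for none of the 9 and for 0.0589% of all genes, and at the unadjusted p for gene8417 alone.

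Another gene annotated as galactinol synthase 2, gene8417, was much less abundant than gene55115. It had 2.64, 6.17 and 6.51 FPKM at stage 1 in TW-1-M and 0.74, 0.73 and 0.69 FPKM at stage 2, and fell by stage 2 with a log2 fold change of -1.76 ± 0.30 (SE, limma adjusted p = 0.00995, and 0.0533 without replicate 2 of stage 2). The TW-1 libraries had 39.5, 8.93 and 27.4 FPKM at stage 1, 10.7, 5.69 and 16.4 FPKM at stage 2 and 1.34, 1.69 and 0.66 FPKM at stage 3. TW-1-M was 15.2-fold lower at stage 2, with a log2 difference of -2.69 ± 0.34 (SE, limma adjusted p = 0.00599). There the lines did not overlap, and 21.5% of all genes were also lower without overlap. This line difference is a description only, since the gene was found among genes the study had called between the lines. Like gene55115, gene8417 was not raised in replicate 1 of TW-1 at stage 3. Nor was the galactosyltransferase gene10921, at 0.903 times the higher of the other replicates, whereas the galactinol synthase gene8335 was at 12.3 times. The galactinol synthase named GOLS in the reference, chosen after its values were seen, was not raised either. Its 3 libraries there had 2.15, 9.74 and 2.29 FPKM, against 140, 71.1 and 150 FPKM in TW-1 at stage 1. In TW-1-M, GOLS had 8.78, 78.8 and 39.5 FPKM at stage 1 and was not called at stage 2 against stage 1 (limma adjusted p = 0.0975).

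Among the genes analysed here, 1 was called in the opposite direction. The probable galactinol-sucrose galactosyltransferase 6, gene36932, had 1.93, 0.83 and 22.8 FPKM at stage 1 in TW-1-M, 87.8, 94.9 and 76.2 FPKM at stage 2, and 128, 86.6 and 140 FPKM at stage 3. Its TW-1 values were 1.03, 1.30 and 0.85 FPKM at stage 1, 1.20, 38.6 and 25.7 FPKM at stage 2, and 7.17, 72.7 and 54.9 FPKM at stage 3. It rose in TW-1-M by stage 2, with a log2 fold change of 4.11 ± 0.83 (SE, limma adjusted p = 0.0154), where 11.4% of all genes rose. The call was lost without the filter and without replicate 2 of stage 1 or replicate 2 or 3 of stage 2 (limma adjusted p of 0.0517 to 0.0703). In TW-1 its change to stage 3 against stage 1 was 3.98 ± 0.80 (SE, limma adjusted p = 0.0643). Between the lines it was not called at any stage (limma adjusted p = 0.0777 at stage 2). It was nevertheless higher in TW-1-M without overlap at stages 2 and 3, as were 25.7% and 9.86% of all genes. Replicate 1, the highest of TW-1 at stages 2 and 3 for most of the 6 genes, was the lowest there for this one. At stage 3 this gene was more abundant than any of the 6 in all 3 libraries of TW-1-M.

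Of the UDP-glucose 4-epimerases outside the list, gene13755 was called within TW-1-M and both were called between the lines at stage 2. Both were found among genes the study had called between the lines, so their line differences are descriptions only. The abundant gene13755 averaged 96.9 ± 19.3, 34.0 ± 6.18 and 29.1 ± 7.28 FPKM at stages 1, 2 and 3 in TW-1-M, and 170 ± 49.5, 73.5 ± 26.8 and 56.8 ± 56.0 FPKM in TW-1 (SD, n = 3 each). It fell in TW-1-M by stage 2, with a log2 fold change of -1.48 ± 0.24 (SE, limma adjusted p = 0.00910). At stage 2 TW-1-M was below TW-1, with a log2 difference of -1.05 ± 0.29 (SE, limma adjusted p = 0.0458). In a fit of all 18 libraries neither was called (limma adjusted p = 0.0532 and 0.143). The line difference was also lost with a pseudocount of 0.1, without the filter, and without replicate 1 or 3 of TW-1 or any one replicate of TW-1-M at stage 2 (limma adjusted p of 0.0525 to 0.146). The second, gene13870, had 2.69, 3.92 and 3.87 FPKM in TW-1-M at stage 2, against 18.3, 15.6 and 13.7 FPKM in TW-1, a log2 difference of -1.91 ± 0.22 (SE, limma adjusted p = 0.00474), and it was called in no comparison of stages.

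The galactosyltransferase gene10921 averaged 10.1 ± 3.13, 4.35 ± 0.64 and 2.85 ± 0.69 FPKM at stages 1, 2 and 3 in TW-1-M, and 15.2 ± 3.66, 7.42 ± 1.76 and 2.79 ± 0.47 FPKM in TW-1 (SD, n = 3 each). It fell by stage 3 against stage 1 in both lines, with log2 fold changes of -1.51 ± 0.28 in TW-1-M and -2.08 ± 0.27 in TW-1 (SE, limma adjusted p = 0.00451 and 0.0350). The call in TW-1 was lost without the filter and without any one of the 6 libraries but replicate 1 of stage 3 (limma adjusted p of 0.0821 to 0.247). In those settings only 0% to 0.00368% of all genes were called. The remaining one, gene11597, stayed at or under 1.60 FPKM in all 18 libraries and was not tested.

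**Figure D4:**
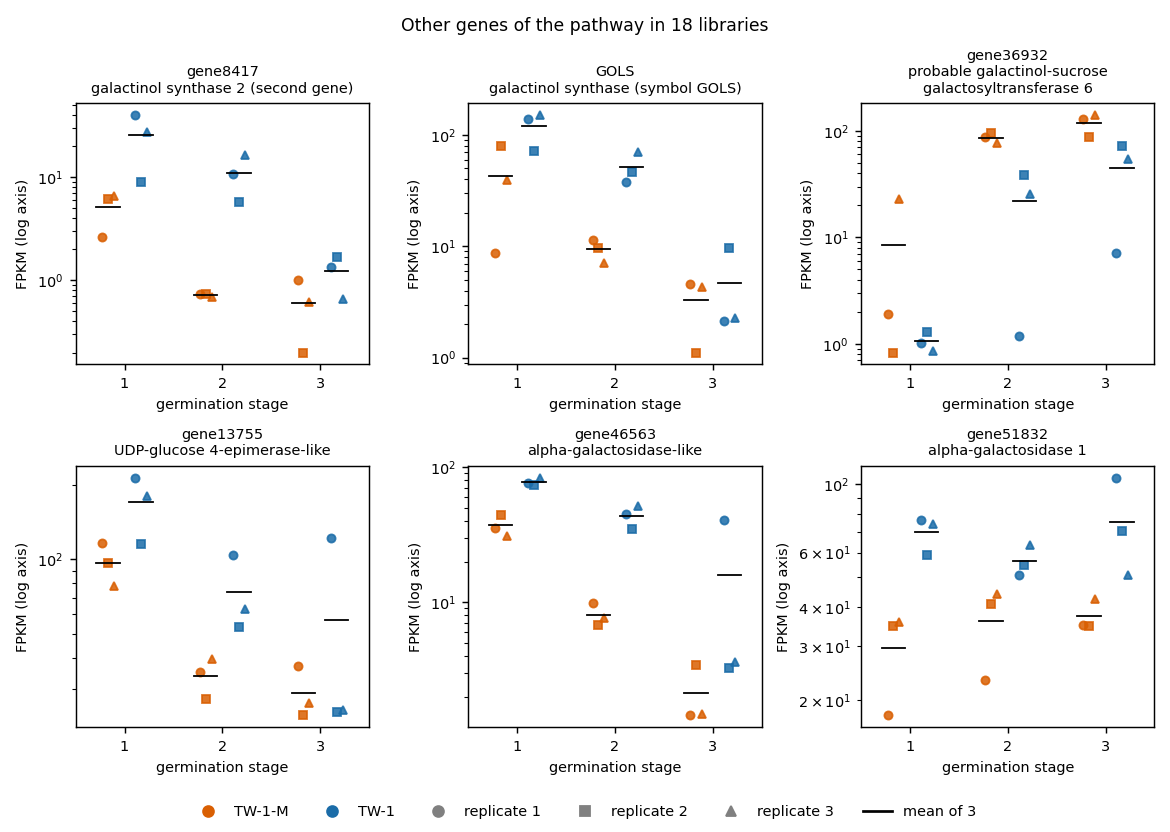
FPKM (log axis) of 6 other genes of the pathway against germination stage, with TW-1-M to the left of TW-1, 1 point for each library, a marker shape for each replicate and a line at the mean of 3. The galactosyltransferase gene36932 was higher at the later stages, the alpha-galactosidase gene46563 was lower, and gene51832 kept within 17.9 and 105 FPKM.

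The alpha-galactosidases, which break these sugars down, did not share a course. The one closest to the 6 synthesis genes, gene46563 (r = 0.982 over 18 libraries), had 35.7, 44.5 and 31.1 FPKM at stage 1 in TW-1-M, 9.89, 6.75 and 7.68 FPKM at stage 2, and 1.46, 3.43 and 1.48 FPKM at stage 3. In TW-1 the values were 76.5, 74.3 and 83.4 FPKM at stage 1, 44.9, 34.8 and 51.2 FPKM at stage 2, and 40.9, 3.25 and 3.62 FPKM at stage 3. It fell in TW-1-M at each step, with log2 fold changes of -2.06 ± 0.23 at stage 2 against stage 1 and -1.59 ± 0.27 at stage 3 against stage 2 (SE, limma adjusted p = 0.00397 and 0.0299). The second step was not called without the filter or in a fit of all 18 libraries (limma adjusted p = 0.114 and 0.221). The line difference at stage 2 was -2.29 ± 0.23 (SE, limma adjusted p = 0.00366). It is a description only, since this gene too was found among genes the study had called between the lines.

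The other alpha-galactosidases were not called in any comparison. Alpha-galactosidase 1, gene51832, averaged 29.5 ± 10.1, 36.1 ± 11.3 and 37.3 ± 4.39 FPKM at stages 1, 2 and 3 in TW-1-M, and 69.8 ± 9.52, 56.3 ± 6.47 and 75.3 ± 27.2 FPKM in TW-1 (SD, n = 3 each). TW-1-M was lower without overlap at stages 1, 2 and 3, as were 13.2%, 21.5% and 11.4% of all genes. This line difference is a description only, since the gene came from the same files of genes called between the lines. Another, gene28991, ranged from 26.9 to 87.7 FPKM in TW-1-M and from 16.4 to 336 FPKM in TW-1, with its highest value in replicate 1 of stage 3. The last, gene28990, stayed at or under 4.22 FPKM.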

How the data were processed

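The deposited table gives the FPKM of 45955 genes in 18 libraries. To make it, the authors trimmed reads with Trimmomatic, aligned them with TopHat and quantified genes by cuffquant, followed by cuffnorm. Versions are not given in the sources used here. FPKM carries no read counts, and because it is scaled to the mapped fragments, summed FPKM is not a measure of sequencing depth. The study reports mapped reads for each library, and they were not used here. Each column was matched to its line, stage and replicate by name. Gene numbers were paired with RefSeq IDs through the study's additional files, and all 6 genes were found.

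Each comparison used the 6 libraries of its groups. Log2(FPKM + 1) was analysed by lmFit and trended eBayes of limma 3.58.1, under R 4.3.3, with genes of FPKM 1 or more in 3 or more libraries, two-sided, and Benjamini-Hochberg adjustment. The fit was tested on simulated data. Other values were computed in Python 3.11.15 with pandas 2.3.3. The members and lists were chosen with earlier results of these data known. Related genes were to be found by protein likeness, and annotations were used instead because no protein table was given. Of each list the 4 with the highest mean FPKM and those called between the lines were to be named, and the others are given by their values.

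Same-numbered libraries deviated together at stages 3 and 2 of TW-1 (correlations of 0.46 to 0.67 in 3 pairs). Of these 6 libraries, 4 correlated best with their own number. That is a hint of pairing from the data, which the labels do not state. With the replicate number as a block, none of the 6 genes was called there either. In the other comparisons at least 1 pair correlated under 0.1. Alternatives were a pseudocount of 0.1, no filter, quantile normalization, all 18 libraries in one fit, the unadjusted p, the replicate block and each library left out. GOLS was added after the data were seen.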

Additional observations from a re-analysis of the deposited data

How the results depend on the processing

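No direction of a called gene reversed. Counts are of the 6 genes and of the 9 others, called in either direction. In TW-1 the unadjusted p gave 3 and 2 at stage 2 against 1 (2.8% of all genes) and 5 and 3 at stage 3 against 2 (7.75%). At stage 3 against 1 it gave 6 and 6 (21.3%). It gave 6 of the 6 in TW-1-M at stage 3 against 2 (8.44%). Between the lines at stage 1 it gave 4 of the 9 (4.07%), and for the interaction 1 of the 9. One fit of 18 libraries gave 3 and 3 in TW-1 at stage 3 against 2 (5.43% of all genes), 6 and 6 at stage 3 against 1 (23.2%), and 0 and 0 in TW-1-M at stage 3 against 2 (0.483%). Without the filter, 0 and 0 were called in TW-1 at stage 3 against 1 (0.0026% of all genes). In TW-1-M it was 0 and 0 at stage 3 against 2 (0.0026%), and 3 of the 9 at stage 2 against 1 (4.71%). A pseudocount of 0.1 gave 1 and 1 in TW-1 at stage 3 against 1 (0.667% of all genes). It gave 0 of the 6 in TW-1-M at stage 3 against 2 (2.44%), where quantile normalization also gave 0 (2.2%). That normalization moved the median log2 fold change of all genes from 0.11 to -0.01 in TW-1 at stage 3 against 1, and in TW-1-M from 0.11 to -0.02 at stage 3 against 1 and from 0.07 to -0.05 at stage 2 against 1.

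Leaving out 1 library gave 0 to 4 of the 6 genes and 0 to 2 of the 9 in TW-1 at stage 2 against 1, 0 to 6 and 0 to 5 at stage 3 against 2, and 0 to 6 and 0 to 6 at stage 3 against 1, where the share of all genes called ran to 5.74%, 22.3% and 42.8%. In TW-1-M it gave 2 to 6 of the 9 at stage 2 against 1, beside 3.96% to 26.4% of all genes. At stage 3 against 2 it gave 0 to 5 of the 6 and 0 to 1 of the 9, beside 0.0884% to 7.47%.

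With the replicate number as a block, 0 of the 6 and 0 of the 9 were called in TW-1 at stage 3 against 1 (0.00368% of all genes). In TW-1-M at stage 3 against 2 it was 1 of the 6 (2.27%). The numbers did not pair these libraries, and 2 of 6 libraries correlated best with their own number in each. Between the lines at stage 2 all 6 did, at correlations of 0.07 to 0.28, which is a hint from the data and not the design.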
